A study of Arabidopsis thaliana with 12 samples.

Results

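Mature seed of the Arabidopsis thaliana mutant ft-1, set on plants kept in 16 h days, was compared with wild-type seed set on plants kept in 8 h days. These are 2 of the 4 groups of the series and hold 6 of its 12 Affymetrix ATH1 arrays, 3 per group, chosen by their titles. Both groups are in the Landsberg erecta (Ler) background, grew at 20 °C, and gave seed from siliques that had opened. Wild-type Ler in 16 h days at 20 °C (3 arrays) is shown beside them as values, and wild type that ripened its seed at 10 °C in 16 h days (3 arrays) enters the estimate of the spread.

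The labels give the ft-1 arrays the genotype ft-1 mutant and a stock of 1 line, but their source name reads Glabra. The gene that carries the mutation was not analysed here, so that label was not checked against the data. Mother and seed of the ft-1 group share the genotype. Genotype and day length both differ between the groups compared, and their parts cannot be told apart. Nothing in the labels says that numbered arrays came from separate plants or harvests, so p-values measure the spread between these arrays, which may be technical.

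Arabidopsis flowers sooner in long days than in short days. The ft-1 mutation acts on a promoter of flowering that long days switch on, so a mutant in long days and a wild type in short days both flower late. The mother plant's surroundings are known to affect seed dormancy in this species. As seeds ripen they lay down storage proteins, oil bodies and late embryogenesis abundant proteins, which accumulate as the seed dries. Small heat shock proteins, chaperones that bind unfolding proteins, also build up in maturing seed. The comparison asks how alike these late-flowering mother plants leave their seed.

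The labelled tissue matched its markers. Of 24 late embryogenesis abundant genes with a named probe set, 19 had a short-day mean and 18 an ft-1 mean over 9 on the log2 scale, a level that 6.81% of probe sets passed per array on average. Of 8 storage protein and oil body genes, 7 passed it in both groups. Signals below are log2 of the deposited MAS5 value, and a difference is ft-1 minus short day on that scale.

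Across all 22746 probe sets that are not Affymetrix controls, the mean distance of ft-1 arrays from short-day arrays was close to that among ft-1 arrays, which rested on ft-1 array 2. The root mean square log2 difference was 1.36 on average over the 9 pairs between the groups (range 1.32 to 1.40). It was 1.38 over the 3 pairs within ft-1 (range 1.29 to 1.47) and 1.31 over the 3 pairs within short day (range 1.30 to 1.35). The 9 pairs of ft-1 with wild-type long-day arrays averaged 1.39, and the 9 pairs of short day with wild-type long day 1.38. Pearson's r across genes ran from 0.902 to 0.918 between the groups, from 0.900 to 0.921 within ft-1 and from 0.913 to 0.919 within short day. Genes are not independent replicates, and these distances are descriptions with no test.

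Array 2 of ft-1 stood apart from its own group. Its distance to ft-1 arrays 1 and 3 was 1.39 and 1.47, while those 2 arrays lay 1.29 apart. Its distance to the short-day arrays was 1.36, 1.33 and 1.38, shorter than to either array of its own group. On the first principal component of the 6 arrays, which held 24.6% of the variance, ft-1 arrays 1 and 3 lay at 66.2 and 104 and ft-1 array 2 at -88.9. The short-day arrays lay between, at -17.5, -21.9 and -42.4. Without ft-1 array 2 the mean distance between the groups was 1.37, against 1.29 for the remaining ft-1 pair and 1.31 within short day. The order of the reference distances also turned: ft-1 was then 1.36 from wild-type long day, slightly less than its 1.37 from short day. With the dimmest 40% of probe sets left out as well, ft-1 arrays 1 and 3 lay 0.562 apart and short-day arrays 0.639 on average. The groups were then 0.757 apart and ft-1 was 0.714 from wild-type long day. For the genes named below, calls that change without ft-1 array 2 are therefore given beside those with all arrays. Values are given for some of the genes whose sign or size changes.

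**Figure D1:**
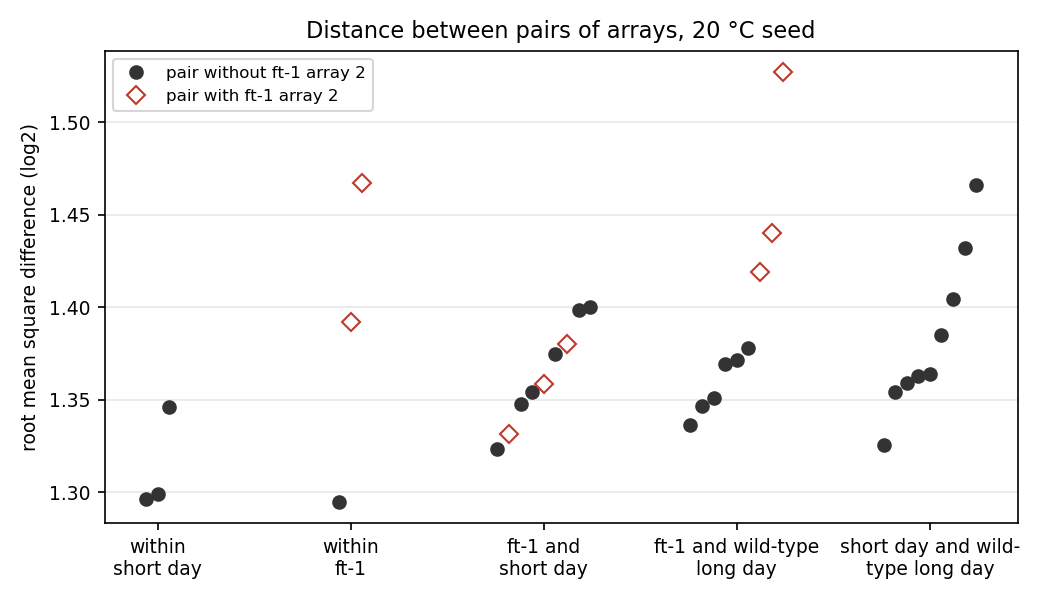
Root mean square log2 difference between pairs of arrays (vertical axis, log2 units, not starting at 0) for pairs within and between the 20 °C groups. Diamonds are pairs that hold ft-1 array 2, which run from 1.39 to 1.47 within ft-1 and from 1.33 to 1.38 against short day.

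The poly-A controls, bacterial transcripts added to each RNA sample before labelling, separated the same arrays. Their mean over 24 control probe sets was 5.65, 7.87 and 6.09 on ft-1 arrays 1, 2 and 3, and 7.68, 7.69 and 7.74 on the short-day arrays. With ft-1 array 2 the groups overlapped. An exact two-sided permutation test of the difference of -1.17 gave p = 0.4. Without it the difference was -1.84 and the exact p was 0.2, which 5 arrays so split cannot go below. The 3' minus 5' signal of the GAPDH, actin and ubiquitin controls, a sign of RNA integrity, differed by -0.03, 0.09 and -0.21 (exact two-sided p = 1, 0.1 and 0.1, where 6 arrays cannot go below 0.1). Hybridisation controls differed by -0.22 (exact p = 0.3). The control probe set for 25S ribosomal RNA read 4.64, 8.32 and 11.1 on the ft-1 arrays and 11.5, 10.3 and 11.5 on the short-day arrays.

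With all arrays, few transcripts separated the groups. Limma called 15 of 22746 probe sets at an adjusted p under 0.05 (0.0659% of those tested), of which 12 were higher in ft-1 (0.0528%) and 3 lower (0.0132%). At an unadjusted p under 0.05 there were 1371. The 12 were 2.26 to 5.39-fold higher and the 3 were 2.76 to 15-fold lower. The 15-fold value belongs to an unnamed probe set with an ft-1 mean of 0.08, where sizes are uncertain. Of the 15, 2 have exactly 1 gene in the platform annotation and 13 are unnamed here.

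The lower of the 2 named was AT5G38170, a member of the lipid transfer protein and 2S albumin superfamily. It read 5.31, 6.14 and 5.17 on the ft-1 arrays and 7.71, 8.25 and 7.61 on the short-day arrays. The groups did not overlap. Wild-type long-day arrays read 6.72, 7.00 and 5.80, the first and second between the groups and the other within the ft-1 range. The difference was -2.32 (SE 0.30, adjusted p = 0.0045), or 5.00-fold lower in ft-1, and -2.62 without ft-1 array 2. Its neighbour by locus number and fellow family member AT5G38160 gave -1.06 with all arrays (adjusted p = 0.26) and fell by 1.33 without ft-1 array 2 (adjusted p = 0.011). Probe sets of such related genes may share signal.

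The higher was AT1G17860, a Kunitz-type protease inhibitor family gene. It read 7.44, 7.64 and 7.35 in ft-1 against 6.61, 6.03 and 6.14 in short day, a difference of 1.21 (SE 0.21, adjusted p = 0.045). Wild-type long-day arrays, at 6.67, 6.25 and 6.14, spanned nearly the short-day range. This call sat at the threshold: its adjusted p ran from 0.067 to 0.19 when ft-1 array 1, ft-1 array 3 or any short-day array was left out, and was 0.015 without ft-1 array 2.

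Among the unnamed probe sets, 260551_at had the smallest adjusted p. It read 8.28, 7.99 and 8.26 in ft-1 and 6.17, 6.66 and 6.12 in short day (difference 1.86, SE 0.21, adjusted p = 0.0032). The probe set 250476_at was lower in ft-1, at 7.66, 7.52 and 7.53 against 9.14, 8.93 and 9.03 (difference -1.47, SE 0.18, adjusted p = 0.0036). All 15 called probe sets had groups that did not overlap, as 11.0% of all probe sets did. The wild-type long-day mean, which took no part in the contrast, lay nearer to the ft-1 mean for 11 of the 15 and nearer to the short-day mean for 4. This count is a description and was not set beside the same count over all probe sets.

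**Figure D2:**
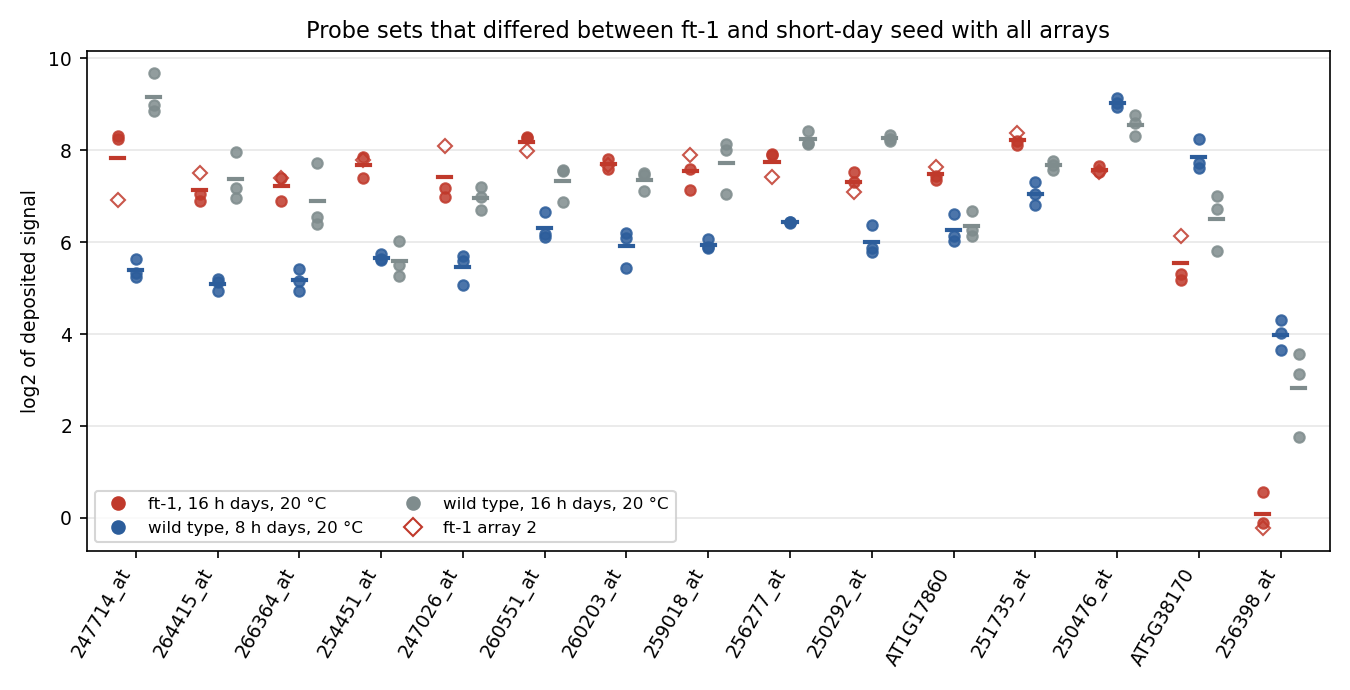
Log2 signal of the 15 probe sets that differed with all arrays, ordered by ft-1 minus short day, on each ft-1, short-day and wild-type long-day array (points), with group means as bars. The ft-1 and short-day points do not overlap for any of the 15, and for 11 the wild-type long-day mean lies nearer to ft-1.

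Likeness was read from intervals, since a p that misses the threshold does not show equality. The 95% confidence interval of the difference lay wholly within 2-fold for 7672 probe sets (33.7%), or 6502 (28.6%) without ft-1 array 2. The share differed with brightness. Among the 4708 probe sets with a mean of 7 or over it was 89.1%, and among the 13621 with a mean under 5 it was 3.40%, where the median interval was 4.01 wide. For the bright probe sets 9 were called, 351 had an unadjusted p under 0.05, and the median size of the difference was 0.17.

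Further genes, which did not pass the threshold with all arrays, were named by smallest p. Their groups did not overlap, which the naming rule required. AT1G33790, a jacalin lectin family gene, gave 1.25 (adjusted p = 0.12) and the linker histone gene HIS1-3 gave 1.04 (adjusted p = 0.16). AT1G04000 (0.89), AT5G66440 (1.29) and AT1G76070 (0.89) were the other higher ones. On the lower side AT4G10270, from a wound-responsive family, gave -1.80 and AT1G33110, a MATE transporter family gene, -1.24. AT3G50540 (-1.31), AT5G05840 (-1.86) and the peroxidase gene AT1G71695 (-0.79) complete the set, with adjusted p from 0.083 to 0.18 over all 10. Without ft-1 array 2 all of these passed except HIS1-3, AT5G05840 and AT1G71695, whose adjusted p was then 0.056 to 0.058.

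Leaving out ft-1 array 2 raised the count from 15 to 477 (2.10% of those tested), with 314 higher in ft-1 (1.38%) and 163 lower (0.717%). No other array did this: without ft-1 arrays 1 and 3 the count was 7 and 10, and without short-day arrays 1, 2 and 3 it was 5, 17 and 8. All 15 probe sets were among the 477. Groups then did not overlap for 34.3% of all probe sets. Of the 477, 328 differed at least 2-fold and 216 have a named gene.

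The largest named differences without ft-1 array 2 are given here with the array it left out. AT5G40340, which encodes a PWWP domain protein, read 9.04 and 8.86 on ft-1 arrays 1 and 3 and 6.29, 6.58 and 5.89 in short day (difference 2.70, SE 0.43, adjusted p = 0.0046). On ft-1 array 2 it read 4.80, below every short-day array, and the difference with all arrays was 1.32 (adjusted p = 0.88). AT1G76810, of the translation initiation factor 2 family, gave 2.20, AT1G74250, a DnaJ domain gene, 2.03, and AT1G21580, a CCCH zinc finger gene, 1.82. A second, dimmer probe set of AT1G21580 gave 0.44 and was not called (adjusted p = 0.74). The other rises by the naming rule were AT1G26380, of the berberine bridge enzyme family (4.73), the cysteine protease gene CP1 (2.29), AT1G22890 (2.13), AT1G64330 (2.08) and AT4G26190 (2.04). AT5G19900 (1.93), the vicilin-like gene AT2G18540 (1.86) and AT3G24080 (1.83) complete these 12. The short-day mean of AT1G26380 was 0.27, where MAS5 values are noisy, so the size of its change is uncertain.

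Named falls without ft-1 array 2 were smaller. After AT5G38170, they were AT4G10270 (-1.99), AT2G07695 (-1.79), the chitinase family gene AT2G43580 (-1.48), AT3G50540 (-1.45), AT2G35750 (-1.44) and AT2G34590, a plastid pyruvate dehydrogenase subunit gene (-1.43). AT3G18170, of a glycosyltransferase family (-1.43), AT3G09000 (-1.43), AT5G38160 (-1.33), AT4G16490 (-1.27) and AT2G38900, a potato inhibitor I family gene (-1.25), followed, with adjusted p from 0.0017 to 0.043 for those after AT5G38170. The probe set of AT2G07695 may bind more than 1 transcript, as its identifier marks it. AT2G35750 read 6.87 and 6.69 on ft-1 arrays 1 and 3, 8.51 on ft-1 array 2, and 8.20, 8.10 and 8.39 in short day. For this gene ft-1 array 2 lay with, and slightly above, the short-day arrays.

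Most of the 477 behaved in this way on ft-1 array 2. That array was already known to lie apart from ft-1 arrays 1 and 3, and the 477 were picked with it left out. Part of this pattern is therefore built in, and the counts here are a description and no test. They were not set beside the same counts over all probe sets. For 406 of them ft-1 array 2 lay nearer to the short-day mean than to the mean of ft-1 arrays 1 and 3, and for 71 nearer to the latter. For 319 it lay on the far side of the short-day mean. It fell within the range of the 3 short-day arrays for 97 and within that of the 2 other ft-1 arrays for 14.

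The mean level of these sets followed the poly-A controls between groups and on ft-1 array 2, while within the short-day group the controls hardly varied. The 314 probe sets averaged 7.78 and 7.76 on ft-1 arrays 1 and 3, 6.11 on ft-1 array 2, and 6.39, 6.42 and 6.33 on the short-day arrays. On the wild-type long-day arrays, which took no part in the contrast, they averaged 7.23, 7.24 and 7.58 where the poly-A mean was 6.99, 6.96 and 6.51. On the 10 °C arrays they averaged 5.91, 6.20 and 5.88 where the poly-A mean was 8.85, 8.12 and 8.76. The 163 lower probe sets ran the other way, from 6.70 on ft-1 array 3 to 8.36 on 10 °C array 1. With the poly-A mean as a covariate and ft-1 array 2 left out, limma called 0 probe sets (1605 at an unadjusted p under 0.05), in a design where the covariate itself separates the groups. With all arrays that covariate gave 56 calls.

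**Figure D3:**
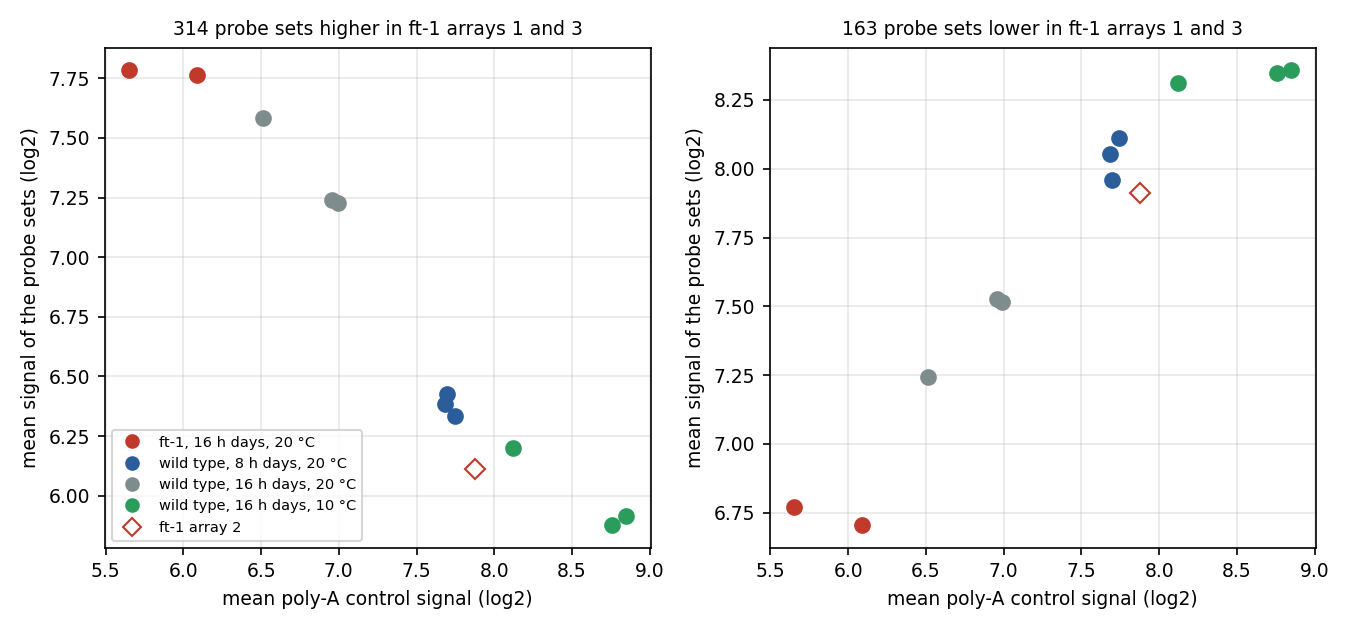
Mean log2 signal of the 314 higher (left) and 163 lower (right) probe sets called without ft-1 array 2, against the mean log2 signal of the poly-A controls, for all 12 arrays (1 point each). Array 2 of ft-1 (diamond) sits beside the short-day arrays in both panels, and the wild-type long-day and 10 °C arrays fall along the same course. Those arrays took no part in the contrast but entered the estimate of the spread, and so bore on which probe sets were called.

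Small heat shock protein genes gave no call with all arrays. AT1G53540, AT1G52560, AT5G37670, ATHSP22.0, AT2G29500 and AT1G71000 had been picked earlier on these arrays for standing above wild-type long day, so that part of their pattern is built in. Of 13 genes of the heat shock list with a named probe set (31 listed), none was called with all arrays (against 0.0659% of all probe sets), and their median difference was 0.02, against -0.02 over all probe sets. The class I gene AT1G53540 read 10.7, 11.6 and 10.6 in ft-1, 10.6, 10.2 and 10.7 in short day, and 8.62, 8.66 and 8.60 in wild-type long day. Its difference was 0.45, with a 95% interval from -0.22 to 1.13, and 0.11 without ft-1 array 2 (-0.51 to 0.74). ATHSP22.0, an endoplasmic reticulum member, read 6.66, 8.36 and 6.55 against 7.67, 6.38 and 7.75, and 4.05 to 4.68 in wild-type long day. The difference was -0.08 (interval -1.16 to 1.00), and -0.66 (-1.64 to 0.32) without ft-1 array 2.

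The mitochondrial small heat shock protein gene AT1G52560 gave 0.31 (-0.17 to 0.80) and AT2G29500 0.02 (-0.44 to 0.49), and AT5G37670 gave -0.30 (-0.83 to 0.23). Without ft-1 array 2 AT5G37670 gave -0.63 (-1.05 to -0.21), AT2G19310 -0.44 (-0.83 to -0.06) and AT2G29500 -0.20 (-0.62 to 0.22), none of them called. Then 3 of the 13 genes lay below and 1 above with no overlap, against 15.6% and 18.7% of all probe sets. Of the 13 intervals 5 lay within 2-fold, and 7 did without ft-1 array 2. With all arrays the share was 33.7% of all probe sets, but 68.2% at a mean of 5 to 7 and 89.1% at 7 or over. Of the 13 genes 11 had a group mean of 5 or over, so the list was not more alike than probe sets of like brightness. On ft-1 array 2 AT1G53540, AT1G52560, AT5G37670, AT2G29500, AT1G71000, AT2G19310 and ATHSP22.0 were each above both ft-1 arrays 1 and 3. AT1G54050 of the same list went the other way, at 10.25, 9.77 and 10.37 on ft-1 arrays 1, 2 and 3.

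AT3G09440, a cytosolic HSP70 family gene, went against most of the small heat shock genes. It read 8.60, 6.58 and 8.46 in ft-1 against 6.82, 7.21 and 6.94 in short day and 8.38 to 8.58 in wild-type long day. It was the 1 heat shock gene called without ft-1 array 2 (1.54, SE 0.17, adjusted p = 0.00031, 2.92-fold higher), and gave 0.89 (adjusted p = 0.74) with all arrays. That is 1 of 13, against 1.38% higher of all probe sets.

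**Figure D4:**
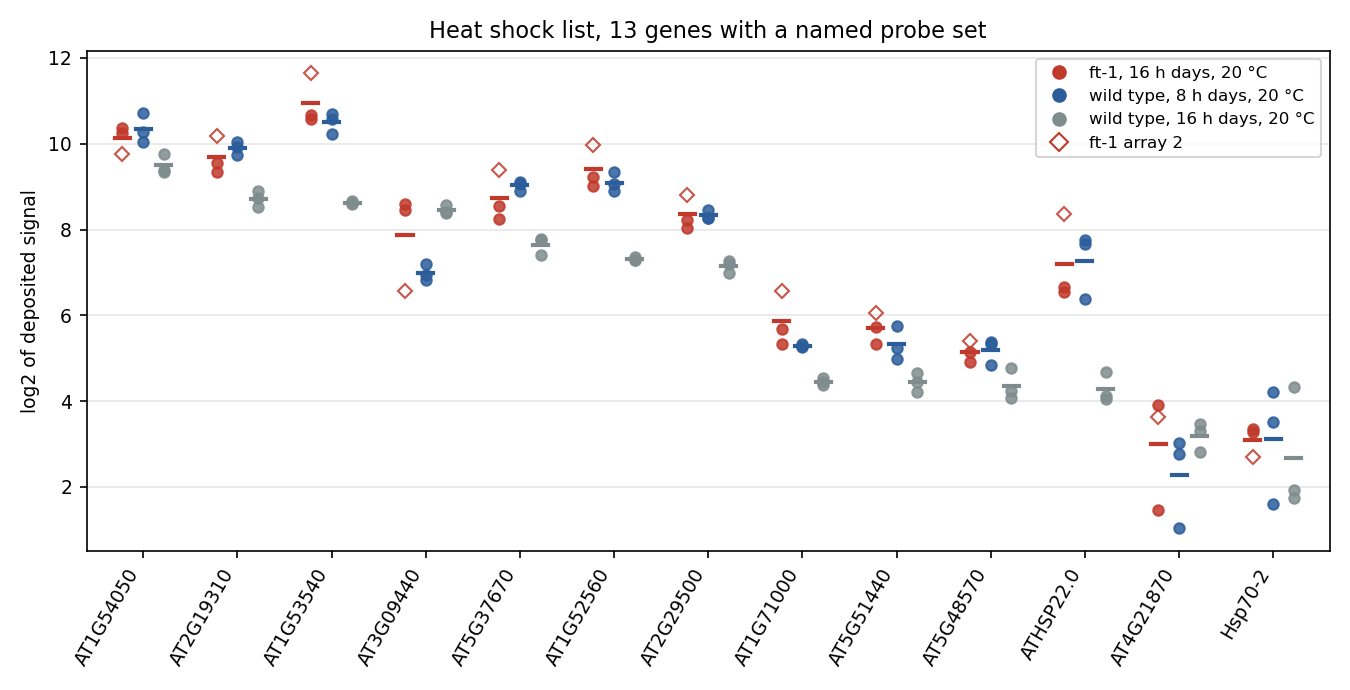
Log2 signal of the 13 heat shock genes with a named probe set on the ft-1, short-day and wild-type long-day arrays (points), with group means as bars. For AT1G53540, AT1G52560 and ATHSP22.0 the ft-1 and short-day points share a range above the wild-type long-day points, and ft-1 array 2 (diamond) is the highest array.

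Transcripts of ripening gave no call with all arrays. None of 24 late embryogenesis abundant genes (39 listed) was called, 18 intervals lay within 2-fold, and the median difference was -0.12. Only 0.0659% of all probe sets were called, so the lack of a call in this list or those below says little. Intervals lay within 2-fold for 33.7% of all probe sets and for 89.1% of those with a mean of 7 or over. M17, a gene expressed late in embryogenesis, read 11.7, 11.9 and 12.0 in ft-1 against 12.5, 12.4 and 12.3 in short day, with no overlap, and gave -0.53 (adjusted p = 0.58). AT3G22490 gave -0.37 and LEA4-5 -0.37. The dehydrin gene LTI30 gave -0.04 (-0.43 to 0.35). Without ft-1 array 2 the dehydrin family gene AT4G39130 fell by 0.96 (adjusted p = 0.0083), and DI21 fell by 0.85 (adjusted p = 0.028). That is 2 of 24, against 0.717% of all probe sets. The list's direction depended on the scaling, with a median of 0.07 after quantile normalization and 0.10 after scaling on hybridisation controls.

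The same held for storage protein and oil body genes. None of 8 (28 listed) was called with all arrays, and 1 of the 8 differences was above 0 (AT2G18540). Of the 8 intervals 7 lay within 2-fold, against 33.7% of all probe sets and 89.1% of those with a mean of 7 or over. The oleosin gene OLEO3, whose product coats oil bodies, read 10.0, 11.2 and 10.1 in ft-1 and 10.8, 10.9 and 10.9 in short day. It fell by 0.83 without ft-1 array 2 (adjusted p = 0.0083) and gave -0.46 with it (adjusted p = 0.84). AT2G18540 was called higher without that array (1.86, adjusted p = 0.022) and gave 0.70 with it. That is 1 of 8 in each direction, against 1.38% higher and 0.717% lower of all probe sets. A second oleosin gene, AT3G01570, gave -0.25 and the cupin gene AT4G36700 -0.33. After scaling on hybridisation controls the list's median was 0.05 against -0.17.

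Regulators of dormancy, germination and flowering were measured only in part. AT4G18650, related to the dormancy gene DOG1, read 9.76, 10.9 and 9.91 in ft-1 and 10.1, 10.2 and 9.33 in short day, a difference of 0.33 (-0.32 to 0.98). Leaving out ft-1 array 2, its highest array, this was -0.04 (-0.60 to 0.52). The bHLH gene SPT gave -0.18, the abscisic acid response factor EEL -0.23 and the clock gene GI -0.26. FD, a bZIP factor of flowering, was dim in both groups. Of 5 gibberellin genes (22 listed) none was called with all arrays. The gibberellin receptor gene GID1A gave -0.44, GID1C 0.19 and the F-box gene SLY1, which marks DELLA repressors for breakdown, -0.42. SLY1 gave -0.77, GID1A -0.63 and GID1C 0.01 without ft-1 array 2, none of them called. CP1 of this list was called without ft-1 array 2 (2.29, adjusted p = 0.019) and not with all arrays (adjusted p = 0.71). It read 6.57, 4.27 and 6.67 in ft-1 against 4.46, 3.36 and 5.20 in short day. The call of CP1 is 1 of 5, against 1.38% higher of all probe sets.

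Cold response, flavonoid and photosynthesis genes gave no call with all arrays. The zinc finger gene STZ gave 0.55 and the cold-regulated gene COR15B -0.63, both with groups that did not overlap. That is 1 of 5 cold genes above and 1 below, against 4.79% and 6.18% of all probe sets. COR15B was dim, with means of 3.43 in ft-1 and 4.05 in short day. Its interval ran from -1.57 to 0.32 (adjusted p = 0.91), so its difference is uncertain. The flavonol glycosyltransferase genes UGT78D2 and UGT78D1 gave -0.12 and -0.04 and the sterol glucosyltransferase gene UGT80B1 gave 0.04, while DFR and BAN of tannin synthesis were dim. Of 9 nuclear photosynthesis genes (49 listed), which would mark green silique tissue, 8 differences were below 0. Their median was -0.40, against -0.02 over all probe sets, and 4 of the 9 had means under 5 in both groups, where differences are uncertain. The antenna protein gene LHCB4.3 was called without ft-1 array 2 (-1.01, adjusted p = 0.034) and gave -0.89 with all arrays. That call is 1 of 9, against 0.717% lower of all probe sets. The summed signal of the 9 was 682 to 936 in ft-1, 904 to 1042 in short day and 879 to 1424 in wild-type long day.

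Markers of other tissues gave no call. The summed signal of 9 pollen-type genes was 204 to 964 in ft-1 and 494 to 498 in short day, with the highest value on ft-1 array 2. The endosperm genes AGL62 and IKU2 had means under 5 in both groups, and so did 2 of 3 seed coat genes. ARA12, a subtilase gene of the seed coat, read 7.01, 7.40 and 7.04 in ft-1 and 7.59, 7.58 and 7.50 in short day. These did not overlap, and the difference was -0.40 (adjusted p = 0.85), or -0.53 without ft-1 array 2 (adjusted p = 0.26). In such bulk RNA, fewer cells of a type and less RNA per cell cannot be told apart.

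Of 69 plastid-encoded genes none was called with all arrays. Their median difference was 0.19, against -0.02 over all probe sets and 0.07 over those with a mean of 5 to 7. With the poly-A covariate it was 0.00, against -0.09 over all probe sets. Of the 69 differences 48 were above 0, a count not set beside that over all probe sets. Without ft-1 array 2, 6 of 69 were called higher and none lower, against 1.38% and 0.717% of all probe sets. They were rps3 (1.71), rpl22 (1.59), ndhI (1.43), rps4 (1.18), rpl14 (1.04) and atpB (0.74), with adjusted p from 0.0015 to 0.048. Of these rps3, rpl22, rps4 and rpl14 encode plastid ribosomal proteins, ndhI a subunit of the NDH complex and atpB a subunit of ATP synthase. On ft-1 array 2 ndhI read 7.74, below the short-day arrays (8.85, 8.74 and 8.36), and rps4 read 8.93, above them (8.62, 8.70 and 7.99). With all arrays 7 of the 69 lay above and 5 below with no overlap, against 4.79% and 6.18% of all probe sets. Among them were rps4 (0.95, adjusted p = 0.18), atpB (0.63, adjusted p = 0.43) and psaB, a photosystem I core gene (-0.82, adjusted p = 0.31).

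Linker histone genes, whose products bind DNA between nucleosomes, differed most on array 2 of ft-1. AT2G30620 read 5.19, 8.20 and 5.67 in ft-1 against 5.81, 5.37 and 5.64 in short day. AT1G06760 read 8.10, 10.3 and 8.30 against 8.65, 8.51 and 8.80. In both, ft-1 array 2 stood above all other arrays of the 2 groups and the other ft-1 arrays did not. Their differences were 0.75 and 0.26 with all arrays, and -0.18 and -0.45 without ft-1 array 2. HIS1-3 differed from them in that all 3 ft-1 arrays (9.69, 10.3 and 9.40) lay above all short-day arrays (8.81, 8.69 and 8.75), while wild-type long-day arrays read 8.37 to 8.55. Its difference of 1.04 (0.55 to 1.53) was 0.79 without ft-1 array 2 (adjusted p = 0.057).

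Autophagy and ubiquitin conjugation genes gave no call with all arrays. None of 8 autophagy genes was called with or without ft-1 array 2. ATG8B gave 0.61 and ATG8H 0.36, and 6 of the 8 intervals lay within 2-fold. Of 12 ubiquitin conjugating enzyme genes UBC28 was called without ft-1 array 2 (-0.82, adjusted p = 0.025), 1 of 12 against 0.717% lower of all probe sets. With all arrays 8 of these 12 intervals lay within 2-fold. For both lists the share to compare is 33.7% of all probe sets, or 89.1% of those with a mean of 7 or over. Of 27 expansin and xyloglucan hydrolase genes, which loosen cell walls, 26 were dim in both groups and none was called.

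Genes picked earlier because they were low in short-day or ft-1 seed against wild-type long-day seed differed in how the groups lay. That choice used these arrays, and both earlier comparisons shared the wild-type long-day arrays, so the values are a description. BGLU25, a beta-glucosidase gene, was low in both: 6.64, 6.96 and 7.07 in ft-1, 6.83, 7.05 and 6.99 in short day, and 8.22 to 8.33 in wild-type long day. Its direct difference was -0.07 (-0.45 to 0.30). The defensin-like gene LCR69 (-0.14), AT5G62720 (-0.18), AT4G33400 (-0.16) and scpl35, a serine carboxypeptidase-like gene (0.01), were also close, although the interval of scpl35 spanned -1.80 to 1.81.

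Others were lowest in short-day seed. AT4G39670 read 3.69, 4.78 and 2.57 in ft-1, 0.26, -0.49 and 2.00 in short day and 4.01 to 4.95 in wild-type long day (difference 3.09, adjusted p = 0.19). AT2G16365 (2.94), AT4G14930 (1.97) and AT5G46710 (1.92) also had no overlap between ft-1 and short day, and AT2G16365 passed without ft-1 array 2 (3.19, adjusted p = 0.048). AT4G39670 and these genes had means under 5 in both groups, so the sizes are uncertain. Their short-day means were 0.59, 0.73, 2.52 and 1.78 in the order named. The metallothionein gene MT1C, for a small metal-binding protein, read 7.03, 6.71 and 6.24 in ft-1 against 4.90, 6.25 and 4.50 in short day (1.44, adjusted p = 0.19), with 7.10 to 7.76 in wild-type long day. Its groups overlapped, by ft-1 array 3 and short-day array 2.

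Others were lowest in ft-1 seed. The alpha-tubulin gene TUA6 read 1.49, 0.45 and 0.98 in ft-1, 3.67, 3.80 and 3.98 in short day and 3.57 to 4.17 in wild-type long day. Its difference was -2.84 (SE 0.56, adjusted p = 0.085) and -2.58 without ft-1 array 2 (adjusted p = 0.032), at dim levels where sizes are uncertain. AT1G33110 read 4.61, 4.93 and 5.17 against 6.19, 5.73 and 6.51, and 6.17 to 6.28 in wild-type long day (-1.25 without ft-1 array 2, adjusted p = 0.029). Some were graded. AT5G01210 went from short day (mean 3.47) through ft-1 (4.47) to wild-type long day (5.75), and AT1G25530 ran from ft-1 (4.74) through short day (5.58) to wild-type long day (6.54). Of the 18 genes 6 lay above and 4 below with no overlap, against 4.79% and 6.18% of all probe sets. Without ft-1 array 2, 1 of the 18 was called higher and 2 lower, against 1.38% and 0.717%. Nothing is read from these counts because of how the genes were picked.

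**Figure D5:**
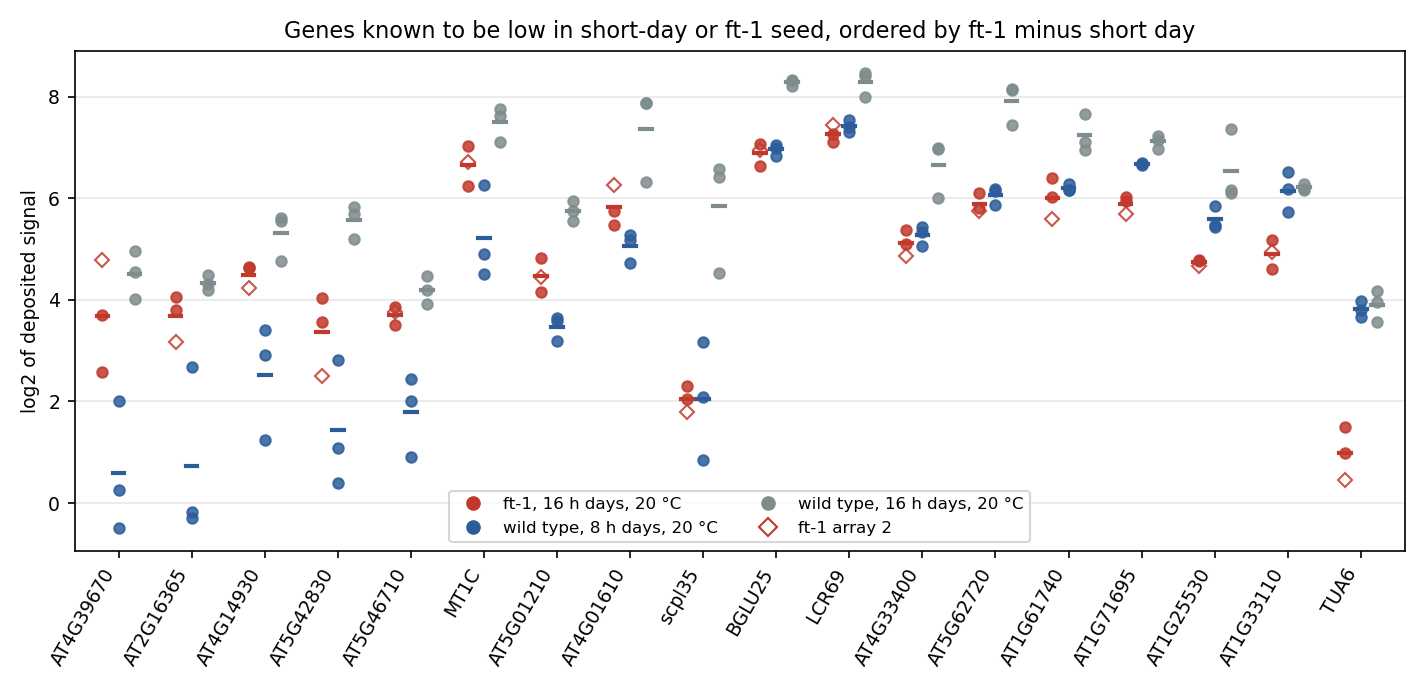
Log2 signal of 18 genes picked earlier for low signal in short-day or ft-1 seed, on the ft-1, short-day and wild-type long-day arrays (points), with group means as bars, ordered by ft-1 minus short day. Short-day points are lowest at the left, ft-1 points are lowest for AT1G33110 and TUA6 at the right, and both groups share a range below wild-type long day for BGLU25 and LCR69.

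Genes picked earlier because they were high against wild-type long-day seed are also a description. Of 15, HIS1-3 lay above with no overlap and none below, against 4.79% and 6.18% of all probe sets. Without ft-1 array 2, 1 lay above and 5 below, against 18.7% and 15.6%. The pollen-type polygalacturonase gene AT3G07820 read 7.07, 7.87 and 5.15 in ft-1 and 6.90, 6.91 and 6.97 in short day (-0.23). AT1G54070 gave 0.32, RALFL26, for a small peptide signal, -0.48, and AT2G47050, of the pectin methylesterase inhibitor family, 0.52. The 4 values were -0.82, -0.45, -1.25 and -0.04 without ft-1 array 2. AT3G09000 alone was called without ft-1 array 2, lower in ft-1 by the value given above. That is 1 of 15, against 0.717% lower of all probe sets. The median of the 15 was 0.02 with all arrays and -0.45 without ft-1 array 2.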

How the data were processed

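The deposited values are MAS5 signal intensities, 1 per probe set and array on a linear scale, and GCOS is the software that the submitters' processing notes name. After trimming 2% of values at either end, every array averages 100, so a change in total RNA per seed cannot be seen. No genome build is given in the sources used here. Of 22810 probe sets, 64 controls stayed out of the tests. Of the other 22746, 13513 had 1 gene in the platform annotation, 503 several and 8730 none, and 13436 were given a locus through the TAIR10.1 gene table. A gene with several probe sets is represented by the brightest.

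Intensities were log2-transformed with their scaling kept. Limma 3.58.1 in R 4.3.3 fitted 1 coefficient per group to all 12 arrays, with an intensity-dependent variance prior, two-sided p-values and Benjamini-Hochberg adjustment over all 22746 probe sets. A probe set was called, or "rose" or "fell", at an adjusted p under 0.05, and an interval is at 95% confidence. The fit was tested on simulated data. The number of arrays limits the precision.

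Named genes were the 12 largest called differences in each direction with no overlap between groups, 1 gene and a higher mean of at least 5 (log2). Where fewer passed, places up to 6 were filled by smallest p. Up to 4 members of each list were added by smallest p, with all members of short lists and of the 2 lists picked earlier on these arrays. Genes named beyond these, among them the other members of the heat shock, storage and autophagy lists, were chosen after their values were seen. Applying that rule to the fit without ft-1 array 2 was decided after the counts were seen. Plastid genes were found by chromosome in the gene table. Members and lists were chosen with earlier results of these data known. No member of the embryo epidermis, raffinose and oxidative protection, mitochondrial or cytosolic ribosomal lists had a named probe set. PDF1.2, the 1 measured gene of the jasmonate and defence list, gave -2.08 at dim levels and was not called.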

Additional observations from a re-analysis of the deposited data

How the results depend on the processing

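The count of 15 called probe sets moved with several choices: 24 with a filter at the 40th percentile, 7 in a fit of the 6 arrays alone, 348 with array weights and 56 with the poly-A covariate. It was 0 without the variance trend (1309 at an unadjusted p under 0.05 by limma). Leaving out 1 array gave 5 to 477, where 477 is without ft-1 array 2. The 477 became 970 in a fit of the 5 arrays alone and 633 with the 40th percentile filter. They became 300 with the replicate number as a block, 1 without the variance trend (2714 at an unadjusted p under 0.05) and 0 with the poly-A covariate. Leaving out a further array gave 19 to 355: ft-1 array 1 38, ft-1 array 3 19, and short-day arrays 1 and 3 110 and 161. In the 2 lowest counts a lone ft-1 array is assumed to vary like the other groups. The causes were not tested. All of these pairings of ft-1 array 2 with another choice were chosen after seeing the data, as was a fit of the 9 arrays from 20 °C (13 calls).

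Of 15 calls 12 were higher (80.0%), and 19 of 21 (90.5%) after scaling on hybridisation controls. Of 477 it was 314 (65.8%), against 417 of 446 (93.5%) with those controls and 280 of 502 (55.8%) after quantile normalization, so directions are relative to the array's scaling. The median of all probe sets moved from -0.02 to 0.20 with hybridisation controls. The count within 2-fold was 21382 with an offset of 16, which shrinks differences of dim probe sets. With the 40th percentile filter the mean distances fell to 0.75 between groups, 0.80 within ft-1 and 0.64 within short day. Without the filter, the distance within ft-1 was 1.29 once ft-1 array 2 was left out. Replicate numbers showed no pairing: deviations of same-numbered arrays correlated at -0.00 to 0.01, and a replicate block gave 14 calls. AT5G38170 lost its call without the variance trend, and with the poly-A covariate once ft-1 array 2 was left out, where nothing was called. No named gene changed sign where it was called.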
